A study of Mus musculus with 8 samples.

Results

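The integrated stress response is followed here through 10 of its genes in the inguinal white adipose tissue (iWAT) of cold-exposed mice. The genes were taken by symbol from a list and all 10 were found among the 17264 genes of the files. The list holds 6 regulators whose mRNAs are known for upstream open reading frames (Atf4, Atf5, Ddit3, Ppp1r15a, Ppp1r15b and Ifrd1), the eIF2alpha kinase GCN2 (Eif2ak4) and 3 targets of the transcription factor ATF4 (Asns, Trib3 and Ddit4). Upstream reading frames themselves cannot be seen in values given per gene, so that the division into regulators and targets rests on general knowledge. Y1cKO mice were Ythdf1 flox/flox males with Adipoq-Cre, which removes exon 4 of the m6A reader Ythdf1 in adipocytes, and Y1CTL mice were Ythdf1 flox/flox males without the Cre. All were C57BL/6 mice aged 9 weeks and had been kept at 4 °C for 7 days, and iWAT was profiled whole, with its adipocytes, immune, vascular and stromal cells. RNA-seq measured transcript levels and Ribo-seq measured the mRNA fragments that ribosomes protect, with 2 libraries per genotype and assay (8 in all). The values are RPKM, which are reads scaled to length and to sequencing depth, computed over the transcript for RNA-seq and over the coding sequence for Ribo-seq.

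In the integrated stress response, kinases that sense amino acid shortage, misfolded protein, viral RNA or heme shortage phosphorylate eIF2alpha, and most mRNAs then start translation less often. Ribosomes that scan an mRNA with upstream open reading frames, such as that of Atf4, tend to be caught in these frames in resting cells and reach the main coding sequence more often once eIF2alpha is phosphorylated. ATF4 then switches on genes of amino acid synthesis and transport, and PPP1R15A and PPP1R15B bring a phosphatase to eIF2alpha that ends the response. Activity of the response was not measured here, since neither assay reads eIF2alpha phosphorylation or protein levels.

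The libraries held 12211351 and 16429015 reads in Y1cKO and 3958284 and 4963613 reads in Y1CTL by RNA-seq, and 9511334 and 9035419 reads in Y1cKO and 11862838 and 7364523 reads in Y1CTL by Ribo-seq. Ythdf1 itself had 7.17 and 7.98 RPKM in Y1cKO against 8.01 and 11.5 RPKM in Y1CTL by RNA-seq. Transcripts of another tissue stood out in 2 RNA-seq libraries. The summed level of 26 lymphocyte and lymph node markers was 8.59 and 8.93 RPKM in Y1cKO and 5.37 and 503.9 RPKM in Y1CTL by RNA-seq, with 14 of the 26 at 0 in Y1CTL replicate 1. By Ribo-seq the same sum was 1788 and 1837 RPKM in Y1cKO and 1643 and 1404 RPKM in Y1CTL, so that the RNA-seq and Ribo-seq libraries differed in this signal. The summed level of 23 skeletal muscle markers was 379.9 and 55.7 RPKM in Y1cKO and 40.3 and 34.1 RPKM in Y1CTL by RNA-seq, and between 102.0 and 125.1 RPKM by Ribo-seq. The 12 white adipocyte markers summed to 16652 and 16854 RPKM in Y1cKO and 13524 and 8916 RPKM in Y1CTL by RNA-seq, and each of them was above 0 in every library. In whole tissue, fewer cells of a type and less RNA per cell cannot be told apart.

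The 3 transcription factors of the list had a lower Ribo-seq over RNA-seq ratio than most genes of the tissue. Atf4, the basic leucine zipper factor that gives the response its transcriptional arm, had 43.5 and 44.7 RPKM in Y1cKO against 45.0 and 39.6 RPKM in Y1CTL by RNA-seq. Its footprint level was 19.3 and 24.1 RPKM in Y1cKO and 21.8 and 18.8 RPKM in Y1CTL. Both genotypes overlapped in both assays, and the Ribo-seq value was below the RNA-seq value in all 8 pairings of a Ribo-seq with an RNA-seq library of the same genotype (ratio 0.418 to 0.554). Over all genes the median of this ratio was 1.78 to 2.17 in the same pairings.

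Atf5, a factor close to ATF4 that is best known for the mitochondrial stress response, had 55.0 and 74.7 RPKM in Y1cKO against 23.8 and 44.5 RPKM in Y1CTL by RNA-seq. Footprints of Atf5 stood at 16.2 and 10.3 RPKM in Y1cKO and 9.73 and 7.84 RPKM in Y1CTL. Both Y1cKO libraries were thus above both Y1CTL libraries in either assay, and Atf5 had the highest mean RNA-seq value of the 10 genes in Y1cKO (64.8 ± 13.9 RPKM, against 34.1 ± 14.6 RPKM in Y1CTL, SD, n = 2 each). Its footprint level ranked lower among the 10, with 13.3 ± 4.19 RPKM in Y1cKO and 8.78 ± 1.34 RPKM in Y1CTL (SD, n = 2 each).

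Ddit3, which encodes CHOP, a factor of prolonged stress and cell death, had 16.7 and 16.2 RPKM in Y1cKO against 17.0 and 9.96 RPKM in Y1CTL by RNA-seq. Its Ribo-seq values were low, with 3.13 and 2.42 RPKM in Y1cKO and 1.84 and 2.42 RPKM in Y1CTL. These footprint levels rest on 15 and 11 reads in Y1cKO and 11 and 9 reads in Y1CTL, and the genotypes overlapped in both assays. The ratio lay between 0.108 and 0.243 in the 8 pairings.

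The phosphatase subunits differed in level and in ratio. Ppp1r15a, which encodes the stress-induced GADD34, had 3.76 and 4.44 RPKM in Y1cKO against 2.52 and 4.38 RPKM in Y1CTL by RNA-seq, and 1.01 and 0.842 RPKM in Y1cKO against 1.20 and 0.689 RPKM in Y1CTL by Ribo-seq. Ppp1r15b, which encodes the constitutive partner CReP, had 25.9 and 25.2 RPKM in Y1cKO against 29.2 and 27.4 RPKM in Y1CTL by RNA-seq, and 17.8 and 17.3 RPKM in Y1cKO against 18.1 and 17.7 RPKM in Y1CTL by Ribo-seq. The constitutive subunit was thus the more abundant one in every library of both assays. Its RNA-seq values were the only ones among the 10 genes with both Y1cKO libraries below both Y1CTL libraries. The ratio was 0.157 to 0.476 for Ppp1r15a, on 10 to 28 footprint reads per library, and 0.607 to 0.707 for Ppp1r15b.

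Ifrd1, a transcriptional co-regulator whose mRNA carries an upstream reading frame that shortens its life in human cells, stood apart from the other 5 regulators. It had 19.1 and 19.5 RPKM in Y1cKO against 11.7 and 15.3 RPKM in Y1CTL by RNA-seq, and 26.2 and 24.4 RPKM in Y1cKO against 21.7 and 24.4 RPKM in Y1CTL by Ribo-seq. Both Y1cKO libraries lay above both Y1CTL libraries in each assay, although by Ribo-seq the nearest values were equal after rounding. Its footprint level was above its transcript level in all 8 pairings (ratio 1.25 to 2.09).

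Eif2ak4 encodes GCN2, the kinase that senses uncharged tRNA. It had 5.77 and 4.96 RPKM in Y1cKO against 3.97 and 5.49 RPKM in Y1CTL by RNA-seq, and 2.23 and 2.13 RPKM in Y1cKO against 2.06 and 2.75 RPKM in Y1CTL by Ribo-seq. The genotypes overlapped in both assays, and the ratio of 0.369 to 0.691 was in the range of the regulators with upstream reading frames other than Ifrd1.

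The ATF4 targets had footprint levels above transcript levels, as the median gene did. Asns, which makes asparagine, had 39.3 and 34.0 RPKM in Y1cKO against 33.7 and 24.1 RPKM in Y1CTL by RNA-seq, and 80.6 and 90.1 RPKM in Y1cKO against 85.4 and 107.6 RPKM in Y1CTL by Ribo-seq. It had the highest footprint level of the 10 genes in every Ribo-seq library. By RNA-seq both Y1cKO libraries were above both Y1CTL libraries, and by Ribo-seq they overlapped.

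Trib3, a pseudokinase that binds ATF4 and restrains it, had the lowest transcript level of the list with 1.17 and 1.32 RPKM in Y1cKO against 1.25 and 1.09 RPKM in Y1CTL by RNA-seq. Its footprint level was 3.86 and 3.86 RPKM in Y1cKO against 2.06 and 2.56 RPKM in Y1CTL, so that the genotypes were apart in footprints and overlapped in transcripts. The footprint values rest on 39 and 37 reads in Y1cKO and 26 and 20 reads in Y1CTL. The transcript values rest on 29 and 44 reads in Y1cKO and 10 and 11 reads in Y1CTL. Ddit4, which encodes the mTORC1 inhibitor REDD1, had 6.72 and 6.14 RPKM in Y1cKO against 3.17 and 4.36 RPKM in Y1CTL by RNA-seq, and 26.9 and 18.2 RPKM in Y1cKO against 16.8 and 11.5 RPKM in Y1CTL by Ribo-seq. Both of its Y1cKO libraries were above both Y1CTL libraries in each assay.

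**Figure D1:**
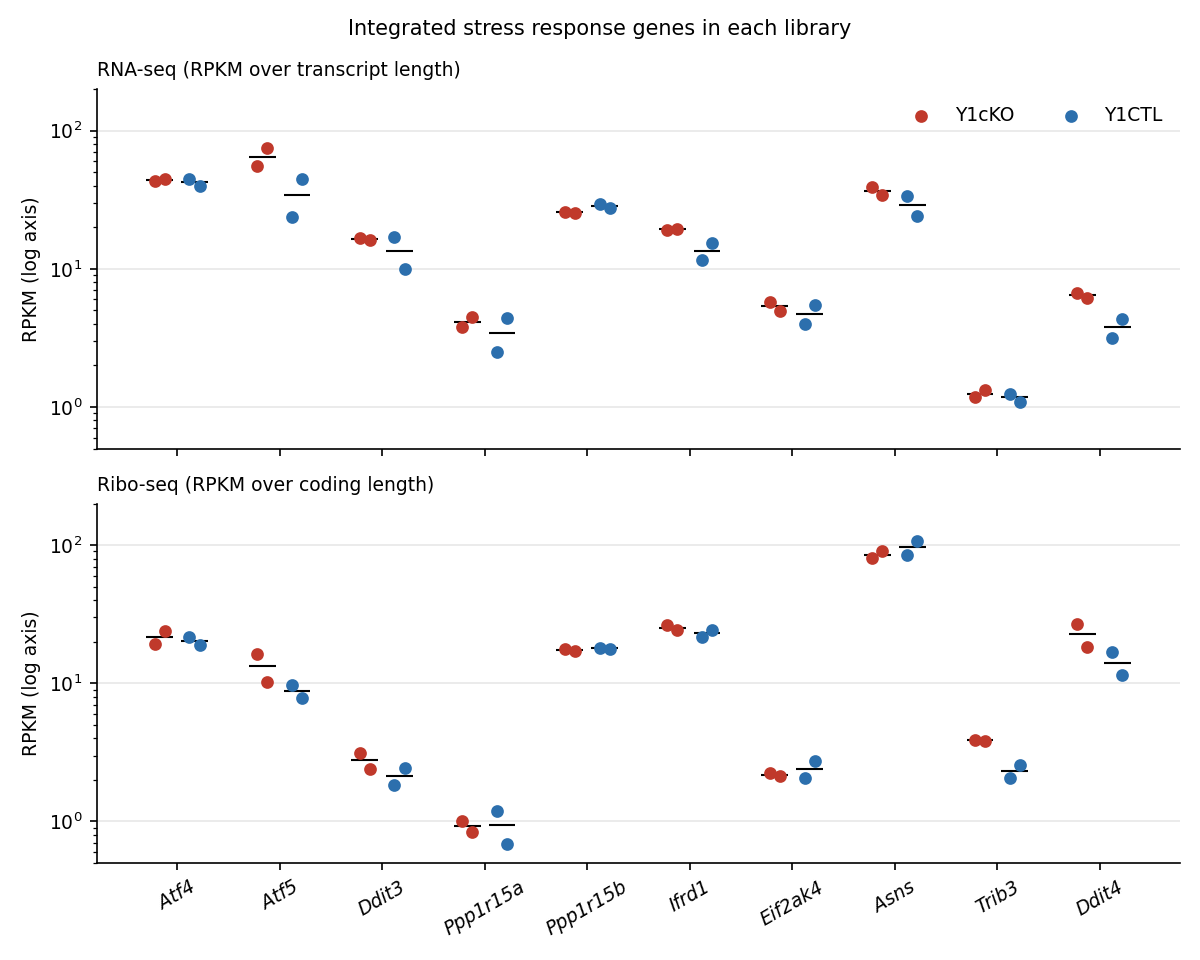
RPKM of the 10 genes in each library on a log axis, RNA-seq above and Ribo-seq below, with Y1cKO left of Y1CTL. Points are libraries and lines are means of 2. Asns and Ddit4 are higher on the Ribo-seq panel than on the RNA-seq panel, while Atf4, Atf5 and Ddit3 are lower.

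ATF4 binds with C/EBP partners to an element shared by many amino acid response genes, and the stretches below are shown because they put this element near the start of 2 of the 3 targets. The 300 bases around each start (250 before and 50 after, from RefSeq, build GRCm38.p6) were available for 9 of the 10 genes in 11 promoters and were searched on both strands for TGATGNAA, the C/EBP-ATF response element, and TGACGTCA, the cAMP response element. The first was present in Asns and Trib3 and in 3.97% of all 32851 promoters, and the second in Ppp1r15a and in 1.79% of all promoters. Each line gives the gene's own strand with the matched letters in capitals.
Asns: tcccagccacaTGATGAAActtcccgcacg
Trib3: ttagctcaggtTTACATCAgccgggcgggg
Ppp1r15a: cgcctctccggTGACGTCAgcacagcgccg
The Asns stretch is chr6:7693214-7693243 on the minus strand, with the element from position -23 relative to the start of the gene. The Trib3 stretch is chr2:152344028-152344057 on the minus strand, where the element reads on the opposite strand from position 15. The Ppp1r15a stretch is chr7:45526262-45526291 on the minus strand, with the element from position -12. The matches describe the letters and not the binding of a factor.

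To set the balance of footprints and transcripts against that of other genes, the mean over both genotypes of log2 Ribo-seq minus log2 RNA-seq was taken for each of 11792 genes, on the log2(RPKM + 0.5) scale, less its median over all of them (0.94, a ratio of 1.92). A value of 0 thus stands for a gene with the median density of footprints on the coding sequence relative to its transcript level. A percentile stands for the share of genes with a ratio as low or lower. The ratio is not a number of footprints per transcript, since Ribo-seq is scaled to the coding length. That length was 504 nt for Ddit3 (percentile 8.86 of all genes) and 4944 nt for Eif2ak4 (percentile 95.9). By limma with Benjamini-Hochberg adjustment over all 11792 genes, 7 of the 10 genes were below the median gene and 2 above it at an adjusted p under 0.05. The same test called 36.4% of all genes lower and 36.4% higher, so that a call by itself is common. All 6 regulators made from mRNAs with upstream reading frames were among the 7, with a median of -2.24.

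Ddit3 was the lowest of the 10 at -3.32 (standard error 0.20, adjusted p = 6.01e-06 from limma), 9.98 times below the median gene and at percentile 0.636. Atf5 followed at -2.99 (standard error 0.24, percentile 1.24) and Ppp1r15a at -2.50 (standard error 0.23, percentile 2.98). Atf4 was at -1.97 (standard error 0.12, percentile 6.78), Eif2ak4 at -1.93 (standard error 0.17, percentile 7.23) and Ppp1r15b at -1.53 (standard error 0.09, percentile 12.3). This order depends on the length used for Ribo-seq. With Ribo-seq reads set over the transcript length, as for RNA-seq, Atf5 was at -3.13, Ddit3 at -3.08, Ppp1r15a at -1.93, Atf4 at -1.79, Eif2ak4 at -1.11 and Ifrd1 at -0.77, with Ppp1r15b between Ddit3 and Ppp1r15a, and all 7 were still called lower by limma. Atf5, Ddit3 and Ppp1r15a overlap neighbouring genes, and with the strand not given their reads may include those of a neighbour. Ifrd1 was nearer the middle of all genes at -0.37 (standard error 0.12, adjusted p = 0.0249 from limma, percentile 39.6). The Ifrd1 call was lost when no minimum RPKM was set (adjusted p = 0.534 from limma) and when any of 5 of the 8 libraries was left out, with adjusted p up to 0.0883.

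Among the ATF4 targets, Ddit4 was at 0.80 (standard error 0.19, adjusted p = 0.00638 from limma, percentile 72.5) and Asns at 0.53 (standard error 0.15, adjusted p = 0.0121 from limma, percentile 65.2). Trib3 at 0.09 did not pass (standard error 0.16, adjusted p = 0.629 from limma, percentile 52.6). Over the transcript length Asns was at 1.15, Ddit4 at 0.39 (adjusted p = 0.0960 from limma) and Trib3 at 0.22, and only Asns passed. The order of Asns and Ddit4 thus also turned with the length.

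**Figure D2:**
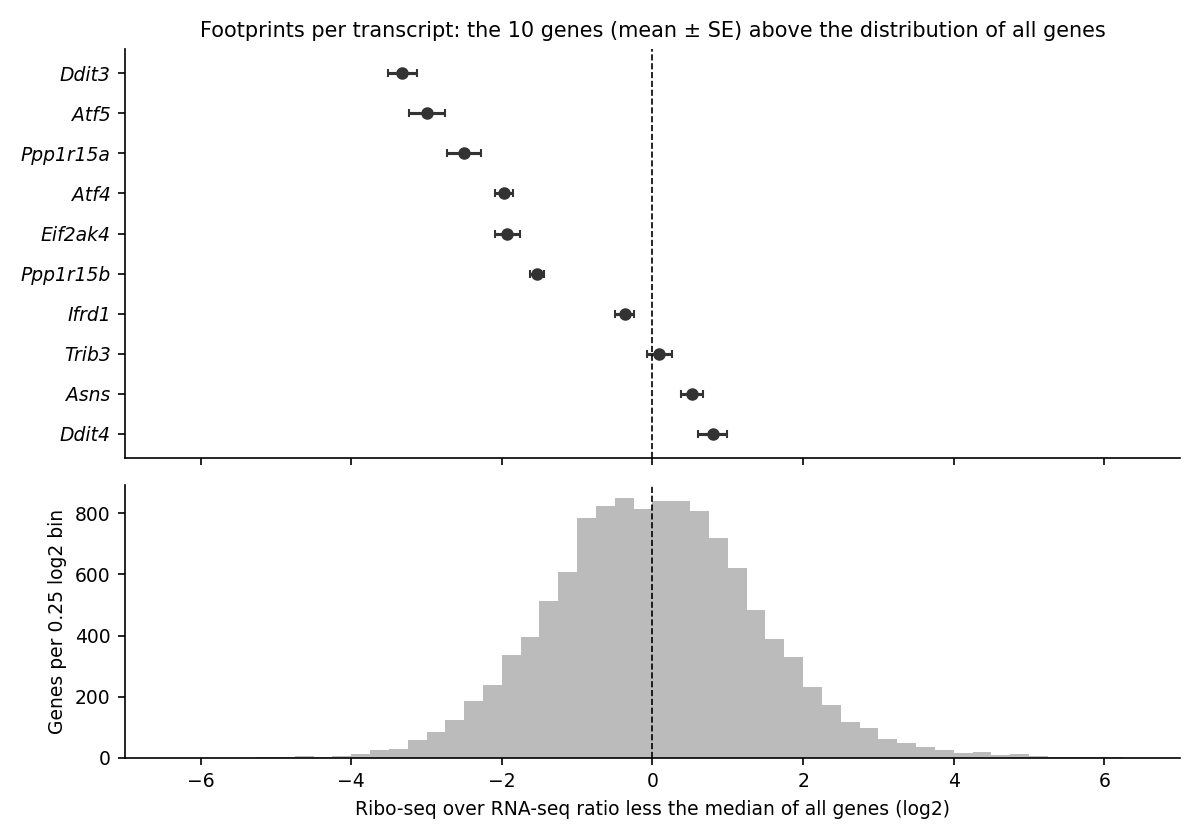
Ribo-seq over RNA-seq ratio less the median of all genes (log2). The upper panel gives each of the 10 genes with its standard error over 8 libraries, and the lower panel the number of genes per bin among 11792. Ddit3 and Atf5 lie in the lower tail, and Asns and Ddit4 to the right of the median.

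The order was also read within each pairing of 1 Ribo-seq with 1 RNA-seq library of a genotype, 4 pairings for each, which share libraries and are no replicates. Ddit3 was between percentiles 0.297 and 1.79 of all genes in the 8 pairings, Atf5 between 0.365 and 5.16, Ppp1r15a between 1.31 and 9.25 and Atf4 between 5.03 and 11.2. Eif2ak4 was between 4.94 and 14.1 and Ppp1r15b between 10.8 and 17.5. These 6 genes were therefore at or below percentile 17.5 in each genotype and with either library. Trib3 was between percentiles 58.8 and 66.6 in the Y1cKO pairings and between 37.1 and 49.5 in the Y1CTL pairings, and Asns between 57.3 and 62.5 in Y1cKO and between 58.2 and 80.5 in Y1CTL.

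**Figure D3:**
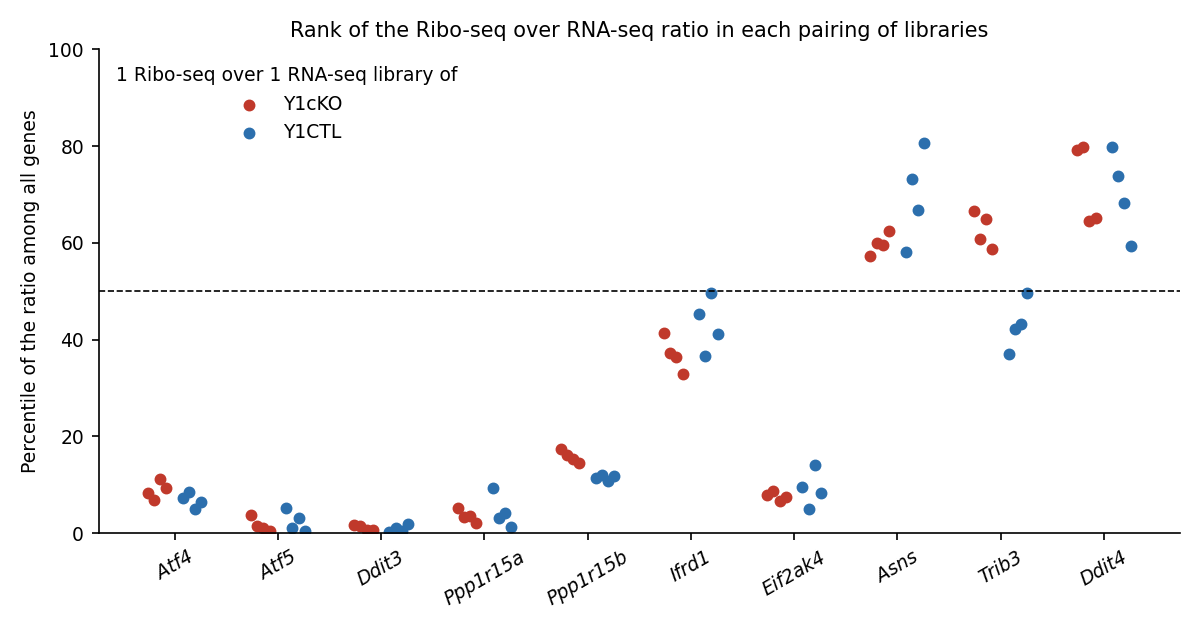
Percentile of each gene's Ribo-seq over RNA-seq ratio among 11792 genes, 1 point per pairing of 1 Ribo-seq with 1 RNA-seq library, Y1cKO left of Y1CTL. Ddit3, Atf5, Ppp1r15a, Atf4, Eif2ak4 and Ppp1r15b stay at or below percentile 17.5 in all 8 pairings. Trib3 is above percentile 50 in Y1cKO and below it in Y1CTL.

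Markers of some cell types also differed between the assays. The lymphocyte and lymph node markers had a median ratio of 3.95 above the median gene (23 of 25 called higher) and the macrophage markers one of 2.86 (11 of 12 called higher), while the endothelial markers were at -1.12 (7 of 10 called lower). Calls over all genes were 36.4% in each direction. The part of this in the ratios of the 10 genes was not tested. Y1CTL RNA-seq replicate 2 had the highest lymphoid sum by RNA-seq, 503.9 RPKM, still below the 1404 to 1837 RPKM by Ribo-seq. Its macrophage sum was 201.7 RPKM against 3767 to 4254 RPKM by Ribo-seq, so that it did not match those libraries. In the pairings with it, Ddit3 was at percentiles 1.03 and 1.79 and Atf4 at 8.46 and 6.48. Without that library in the fit the ratio was -3.48 for Ddit3, -2.75 for Atf5 and -1.99 for Atf4.

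The 5′ leader, the stretch before the coding sequence where upstream reading frames lie, could be measured from the coding start that the files give for each transcript. Leaders of 594 nt for Atf4, 764 nt for Ppp1r15a and 604 nt for Ppp1r15b were at percentiles 94.3, 97.1 and 94.6 of the 11792 genes, whose median leader was 169 nt. Atf5 had 373 nt and Ifrd1 233 nt, while Ddit3 with 186 nt, Ddit4 with 198 nt, Asns with 184 nt and Trib3 with 176 nt were close to the median. Eif2ak4 had the shortest leader of the 10, 91 nt (percentile 26.2).

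Over all genes the ratio was lower where leaders were long, with a median of -0.44 over 1744 genes with leaders over 400 nt, of 0.30 over 1935 genes with leaders of 51 to 100 nt and of 0.04 over 1590 genes with leaders up to 50 nt. Against genes of the same leader class Ddit3 was at percentile 0.465, Atf5 at 1.45, Eif2ak4 at 4.75, Ppp1r15a at 4.82, Atf4 at 10.9 and Ppp1r15b at 19.0. Atf4, Ppp1r15a, Ppp1r15b, Atf5 and Ifrd1 ranked higher within their classes than among all genes (6.78, 2.98, 12.3, 1.24 and 39.6). The other members ranked lower within theirs. Ifrd1 was at percentile 42.5, Trib3 at 50.4, Asns at 62.6 and Ddit4 at 70.9 of their classes. The leader classes were chosen after the ratios were seen, and genes are not independent replicates. Whether footprints on the leader were counted is not given in the sources, and their part in the Ribo-seq values was not tested.

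**Figure D4:**
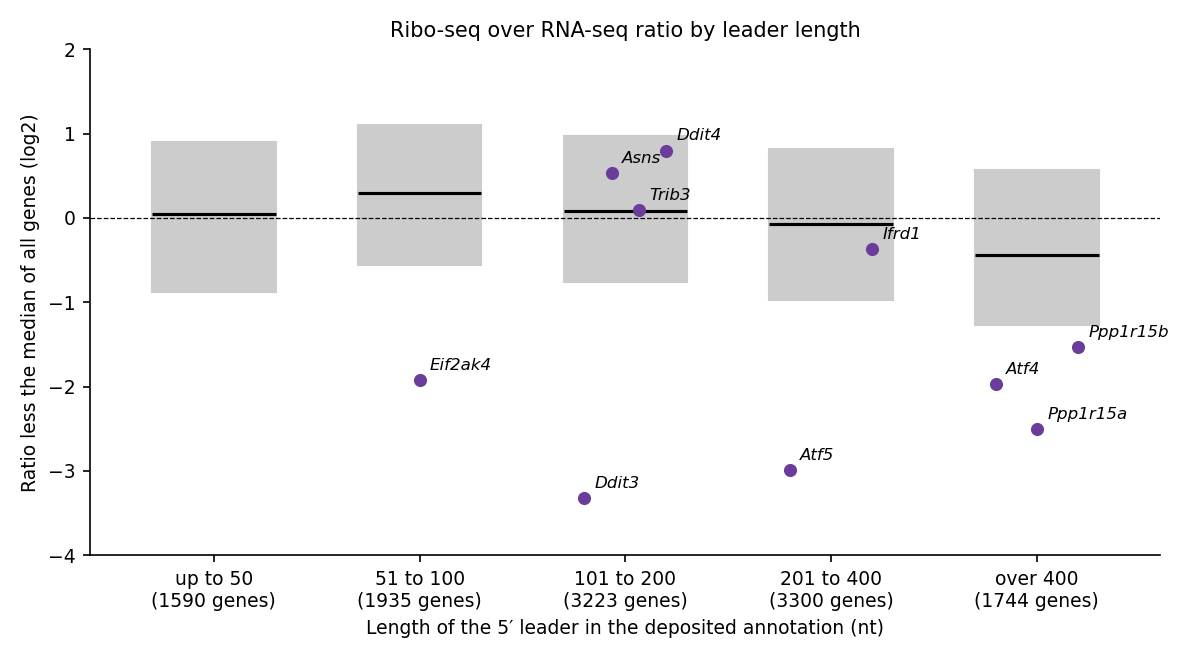
Ribo-seq over RNA-seq ratio less the median of all genes (log2) by length of the 5′ leader. Grey boxes span the quartiles of all genes in a class, black lines are their medians and purple points are the 10 genes. The points of Ddit3, Atf5, Eif2ak4, Ppp1r15a, Atf4 and Ppp1r15b lie below the box of their class.

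Between genotypes no gene of the list differed beyond the spread of the libraries by the test across genes. At an adjusted p of 0.05 from limma, 0 of the 10 genes passed by RNA-seq, by Ribo-seq or for translational efficiency (TE), the change of the Ribo-seq over RNA-seq ratio, and the share of all genes that passed was 0% in RNA-seq, 0% in Ribo-seq and 0% for TE. At an unadjusted p under 0.05, limma gave 1468 of 12435 genes by RNA-seq, 347 of 12602 by Ribo-seq and 1021 of 11792 for TE, and voom on the recovered reads called 0 genes in each. An exact permutation test of 2 libraries against 2 cannot go below a two-sided p of 0.333. Nothing states that replicates came from separate animals, so the p-values cover the spread between libraries, which may be technical. Without Y1CTL RNA-seq replicate 1, limma called 665 genes by RNA-seq and 581 for TE, and without Y1CTL RNA-seq replicate 2 it called 52 by RNA-seq, and without Y1CTL Ribo-seq replicate 1 or 2 it called 51 or 19 by Ribo-seq, while the 10 genes passed in none of these fits.

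By RNA-seq, 4 of the 10 genes had both Y1cKO libraries above both Y1CTL libraries and 1 had both below, against 36.9% and 10.7% of all genes. Atf5 had a log2 fold change of 0.97 (standard error 0.34), Ddit4 of 0.71 (standard error 0.24), Ifrd1 of 0.51 (standard error 0.20) and Asns of 0.35 (standard error 0.22), and the lowest adjusted p of the list was 0.402 from limma. Ppp1r15b was at -0.14 (standard error 0.17). The other 5 genes were between 0.06 and 0.33. Without Y1CTL RNA-seq replicate 1, Atf5 was at 0.52, Asns at 0.59 and Ifrd1 at 0.32, and without Y1CTL RNA-seq replicate 2 Atf5 was at 1.41 and Asns at 0.12. The median over all genes was 0.17 and that over the list 0.29. With the libraries scaled to the same median, Atf5 was at 0.79, Ddit4 at 0.56, Ifrd1 at 0.34, Asns at 0.18 and Ppp1r15b at -0.31, and Atf4 and Trib3 turned to -0.11 and -0.06.

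By Ribo-seq, 4 of the 10 genes had both Y1cKO libraries above both Y1CTL libraries and 0 had both below, against 15.4% and 14.1% of all genes. Ddit4 had a log2 fold change of 0.65 (standard error 0.26), Trib3 of 0.64 (standard error 0.21), Atf5 of 0.54 (standard error 0.25) and Ifrd1 of 0.13 (standard error 0.15), each with an adjusted p of 1.00 from limma. Atf4 was at 0.09 (standard error 0.17) and Ppp1r15b at -0.03 (standard error 0.14), both smaller than their standard errors. Asns was at -0.17, the lowest of the list, and Ppp1r15a at 0.00. With 1 Ribo-seq library left out, Atf5 ran from 0.23 (without Y1cKO replicate 1) to 0.86 (without Y1cKO replicate 2) and Ddit4 from 0.38 to 0.93 (without the same libraries). Asns ran from -0.34 (without Y1CTL replicate 1) to -0.0040 (without Y1CTL replicate 2).

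Atf5, Ifrd1 and Ddit4 had both Y1cKO libraries above both Y1CTL libraries in both assays, 3 of the 10 genes against 5.48% of the 11792 genes. The Y1cKO mean of Atf5 was 1.90 times the Y1CTL mean by RNA-seq and 1.51 times by Ribo-seq. For Ddit4 it was 1.71 times by RNA-seq and 1.60 times by Ribo-seq, and for Ifrd1 1.43 times by RNA-seq and 1.10 times by Ribo-seq. Marker lists also leaned up or down in Y1cKO by RNA-seq. Both Y1cKO libraries were above both Y1CTL libraries for 11 of 12 white adipocyte, 5 of 10 endothelial and 4 of 10 progenitor and fibroblast markers. They were below for 10 of 20 beige and brown adipocyte markers. The shares over all genes were 36.9% above and 10.7% below. The 12 white adipocyte, 10 endothelial and 10 progenitor and fibroblast markers were all above 0 in log2 fold change (medians 0.55, 0.44 and 0.79). Of 20 beige and brown adipocyte markers 18 were below 0, with a median of -1.43, while 8356 of all 12435 genes were above 0. By Ribo-seq 5 of 12 white adipocyte and 2 of 10 endothelial markers were above 0, with medians of -0.03 and -0.14. So were 8 of 10 progenitor and fibroblast and 16 of 20 beige and brown markers, with medians of 0.15 and 0.33. By that assay 6495 of all 12602 genes were above 0. The beige and brown markers summed to 532.3 and 1856 RPKM in Y1cKO and 2164 and 3713 RPKM in Y1CTL by RNA-seq, and to 12311 and 10088 RPKM in Y1cKO and 15562 and 5045 RPKM in Y1CTL by Ribo-seq. The part of these markers in the values of Atf5, Ifrd1 and Ddit4 was not tested. None of these differences, of the 3 genes or the markers, passed the test across genes.

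The TE changes of the list were between -0.52 for Asns and 0.57 for Trib3, with a median of -0.16 against -0.17 over all genes. Trib3 was at 0.57 (standard error 0.33, adjusted p = 0.595 from limma) with its transcript level at 0.06, while Asns was at -0.52 (standard error 0.29, adjusted p = 0.589 from limma) with RNA-seq at 0.35 and Ribo-seq at -0.17. Atf5 was at -0.43 (standard error 0.48), and it was 0.02 without Y1CTL RNA-seq replicate 1. The other 7 genes were between -0.38 and 0.12.

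**Figure D5:**
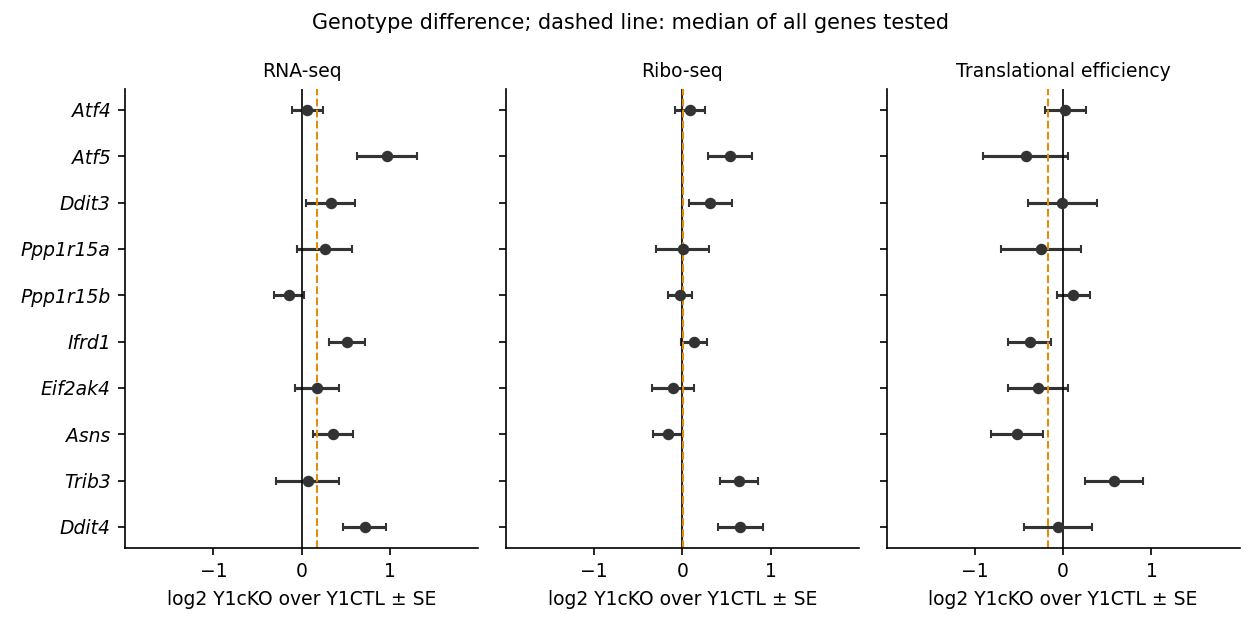
Log2 fold change of Y1cKO over Y1CTL with its standard error for the 10 genes by RNA-seq, Ribo-seq and for translational efficiency, from limma on 2 libraries per group. The dashed lines are the medians of all genes tested, 0.17, 0.01 and -0.17. Atf5 and Ddit4 lie to the right by RNA-seq and, with Trib3, by Ribo-seq.

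The rest of the pathway was read from lists written from general knowledge. Of 22 other ATF4 targets tested for the ratio, 13 were called higher and 1 lower than the median gene, with a median of 0.81, beside the 36.4% of all genes called in each direction. Nupr1, a small stress-induced chromatin protein, was at 1.89 with 35.3 and 44.3 RPKM in Y1cKO against 20.4 and 16.8 RPKM in Y1CTL by RNA-seq and 215.5 and 210.7 RPKM in Y1cKO against 155.9 and 208.2 RPKM in Y1CTL by Ribo-seq. Eif4ebp1, a brake on cap-dependent initiation, was at 1.77 (percentile 90.2) and Cebpg, a C/EBP partner of ATF4, was at percentile 86.6. In all, 19 of the 22 had a ratio above the median gene, the side of Asns and Ddit4, and 3 one below it.

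Of 19 eIF2alpha kinases, eIF2 and eIF2B subunits and their partners, 13 were called higher and 4 lower, with a median ratio of 0.69. Here too 36.4% of all genes were called in each direction. Eif2s2, the beta subunit of eIF2, was at 1.41, and Nck1, an adaptor of the eIF2alpha phosphatase, at 1.61. Of 18 genes of the unfolded protein response of the endoplasmic reticulum, 14 were called higher and 1 lower, with a median of 0.89. Manf, a secreted stress factor of this organelle, was at 2.76 (percentile 97.1) and the chaperone Hspa5 at 2.30 (percentile 95.0).

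Of 10 other mRNAs known for upstream reading frames, 9 were tested for the ratio. Of these 9, 0 were called higher and 5 lower, with a median of -0.42, beside 36.4% of all genes called in each direction. Amd1 was not tested, since its Ribo-seq values of 0.16 to 0.36 RPKM were under the filter of 0.5 RPKM. Cebpb of this list is also among the other ATF4 targets. Slc35a4, whose leader is known to encode a separate small protein, was at -4.65 (percentile 0.0678). It had 27.7 and 21.8 RPKM in Y1cKO against 27.2 and 27.0 RPKM in Y1CTL by RNA-seq, and 0.973 and 1.14 RPKM in Y1cKO against 2.43 and 1.82 RPKM in Y1CTL by Ribo-seq. Ibtk, an inhibitor of a tyrosine kinase of B cells, was at -1.62 and Bace1, a membrane protease, at -1.07. These 3 genes lay on the same side of the median as the regulators of the list, although Ibtk and Bace1 were nearer to it than Ddit3, Atf5 or Ppp1r15a.

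Between genotypes the other lists also gave no call, with 0 genes passing in either assay by limma. By RNA-seq 12 of 22 other ATF4 targets were above and 10 below 0 in log2 fold change, beside 8356 of all 12435 genes above 0. Both Y1cKO libraries were above both Y1CTL libraries for 9 of the 22 and below them for 4. The shares over all genes were 36.9% and 10.7%. An unadjusted p under 0.05 was given to 4 of the 22 by RNA-seq, all higher in Y1cKO, beside 1468 of all 12435 genes, and to 2 of 25 by Ribo-seq, both lower, beside 347 of 12602. Phgdh, the first enzyme of serine synthesis, had 55.8 and 51.4 RPKM in Y1cKO against 27.0 and 16.4 RPKM in Y1CTL by RNA-seq (log2 fold change 1.33, adjusted p = 0.401 from limma), and 134.8 and 106.9 RPKM in Y1cKO against 88.6 and 151.6 RPKM in Y1CTL by Ribo-seq. Eif4ebp1 had a log2 fold change of 1.13 and Nupr1 of 1.08 by RNA-seq. By Ribo-seq the values of Phgdh overlapped, and the median over 25 other ATF4 targets was 0.02 against 0.01 over all genes.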

How the data were processed

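Libraries were grouped by genotype and assay from the labels. The authors mapped the reads to mm8 (HISAT2 2.2.1) and deposited RPKM per gene. The submitters' processing notes list DESeq2 too, with no role stated. The counter, annotation release, strandedness and any restriction of footprints to the coding sequence are not given here. Within 0.01 read, 99.92% to 100% of the values were whole reads. Genes that a Ribo-seq table lacked were set to 0, and counting error allows up to 3 reads at 0.

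log2(RPKM + 0.5), which understates changes of low genes, was tested with limma 3.58.1 (R 4.3.3, intensity trend) for genes averaging 0.5 RPKM or more, with Benjamini-Hochberg adjustment. All 10 genes passed this filter in both assays. TE was the interaction of assay and genotype. Fits were tested on simulated counts with the same spread setting for all genes, which does not show that they hold for these libraries. Alternatives covered the pseudocount, filter, trend, scaling, length, block, voom and each library left out. The text names the 10 genes, Ythdf1 and up to 3 members of each other list by smallest p in each comparison. The members and lists were chosen with earlier results of these data known.

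The labels say that lysed tissue was shared out to both assays, but not which libraries come from 1 animal. The main fits used no pairing and a block on the number was an alternative. Between the assays, libraries with 1 number deviated from their group means with a correlation of -0.24 in Y1cKO and -0.14 in Y1CTL. In both Y1cKO RNA-seq tables the header number differs from the label, which was followed. In RefSeq, Atf5, Ddit3 and Ppp1r15a overlap protein-coding neighbours (Nup62 and Il4i1b, Mbd6 and Mars1, and Tulp2), and without strand their reads cannot be told apart. Python 3.11.15, pandas 2.3.3 and matplotlib 3.10.9 made the tables and plots.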

Additional observations from a re-analysis of the deposited data

How the results depend on the processing

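The ratios to the median gene kept direction and call in 152 of 160 alternative values over the 10 genes. Ifrd1 lost its call with no minimum RPKM (-0.09) and without Y1CTL RNA-seq replicate 2 (-0.25), Y1cKO RNA-seq replicate 1 (-0.40) or 2 (-0.33), Y1CTL Ribo-seq replicate 1 (-0.33) or Y1cKO Ribo-seq replicate 2 (-0.34). Ddit4 lost its call with Ribo-seq over the transcript length (0.39), and Trib3 was at -0.0045 with a pseudocount of 1. The cause was not tested.

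The genotype changes kept direction in 103 of 110 alternative values by RNA-seq, 102 of 110 by Ribo-seq and 47 of 48 for TE, and none gained a call. The 48 TE values cover only Asns, Trib3 and Atf5, which had the largest TE changes of the list in size. For the other genes the direction of the TE change under the alternatives is not given, so that the counts are not alike. Scaled to the same median, RNA-seq changes were -0.11 for Atf4 and -0.058 for Trib3. The Ribo-seq change of Ppp1r15a was -0.00039 with a pseudocount of 1, -0.053 with voom and -1.7e-05 when scaled. With 1 library left out, RNA-seq changes ran from -0.027 to 0.15 for Atf4, -0.047 to 0.70 for Ddit3, -0.087 to 0.60 for Ppp1r15a, -0.034 to 0.39 for Eif2ak4 and -0.0013 to 0.13 for Trib3. Those of Atf5, Asns, Ifrd1 and Ddit4 kept their direction, from 0.52 to 1.41, 0.12 to 0.59, 0.32 to 0.70 and 0.51 to 0.92. Ribo-seq changes ran from -0.070 to 0.25 for Atf4, -0.25 to 0.26 for Ppp1r15a and -0.28 to 0.064 for Eif2ak4, and the TE change of Atf5 from -0.87 to 0.019. These fits called 0 to 665 genes by RNA-seq (up to 265 higher and 400 lower), 0 to 51 by Ribo-seq (up to 43 higher and 13 lower) and 0 to 581 for TE (up to 422 higher and 159 lower). A lone library is assumed there to vary like the others.

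With the replicate block, in which a number within a genotype stood for 1 animal in the ratio and TE fits, 8101 genes were called for the ratio against 8582 without it, and 8363 with the crossed pairing. The block gave 0 genes by RNA-seq, Ribo-seq or for TE and changed no call of the 10 genes. Footprints of Ddit3, Ppp1r15a and Trib3 and transcripts of Trib3 rest on few reads, which limits what could be detected for these genes.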

Other observations

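Genes of the mitochondrial stress response, which reaches eIF2alpha through OMA1 and DELE1, had ratios around and above the median gene, with 5 of 11 called higher, 0 lower and a median of 0.29. The share of all genes called was 36.4% in each direction. Yme1l1, a protease of the inner mitochondrial membrane, was at 1.16. Hspe1, a mitochondrial chaperonin, had 50.4 and 42.5 RPKM in Y1cKO against 68.5 and 60.1 RPKM in Y1CTL by RNA-seq, and 95.9 and 96.6 RPKM in Y1cKO against 155.4 and 106.5 RPKM in Y1CTL by Ribo-seq. The Y1cKO values were all under the Y1CTL values within an assay, with log2 fold changes of -0.47 by RNA-seq (adjusted p = 0.424 from limma) and -0.42 by Ribo-seq (adjusted p = 1.00 from limma). Hspe1 was thus on the side opposite to Atf5, Ddit4 and Ifrd1. Clpp of the same list was on their side by RNA-seq, with a log2 fold change of 0.66 (adjusted p = 0.413 from limma). Of the 11 genes, 7 were above and 4 below 0 by RNA-seq, and 3 were above and 8 below by Ribo-seq.

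Immediate early genes, short-lived transcripts induced by acute signals, spread to both sides of the median gene, with 7 of 20 called higher, 4 lower and a median ratio of -0.01. Among all genes 36.4% were called in each direction, so that the higher calls are near the common share and the lower calls under it. Dusp1, a phosphatase of MAP kinases, was at -1.76 and Nr4a2, an orphan nuclear receptor, at -2.23, while Ier2 was at 1.22. Of the markers of other cells, progenitor and fibroblast genes had a median ratio of 1.77 (8 of 10 called higher, 0 lower), beige and brown adipocyte genes of 1.18 (8 of 20 higher, 4 lower), white adipocyte genes of 0.96 (8 of 12 higher, 1 lower) and skeletal muscle genes of -0.66 (1 of 7 tested higher, 0 lower).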
